A study of Culex quinquefasciatus and Culex pipiens molestus with 2 samples.

Results

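Enzymes that build, trim and sulfate the sugar chains of proteins and lipids were described in RNA sequencing of female house mosquitoes of 2 taxa, Culex pipiens molestus and Culex pipiens quinquefasciatus. The members were all transcript models whose product description names a galactosyl, N-acetylglucosaminyl, N-acetylgalactosaminyl, fucosyl, mannosyl, sialyl, xylosyl or glucosyl transferase, a sulfotransferase, a mannosidase or a beta-1,3- linkage. Descriptions naming oligosaccharyl, glucuronosyl, glucan-binding or chitin products were left out. This gave 119 of the 16198 models listed in at least 1 of the 2 deposited tables. Both libraries came from females of a laboratory strain, each pooled from 30 females, and the labels name no treatment, tissue, feeding state or age. Each taxon had 1 library, so taxon and library cannot be told apart, the differences have no replicate check, and p-values are not given. The table abbreviated Cxm was read as molestus and the one abbreviated Cxq as quinquefasciatus, and every direction below rests on those abbreviations. Below, "in molestus" and "in quinquefasciatus" stand for the single pool of each taxon.

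Protein glycosylation starts in the endoplasmic reticulum, where a sugar chain is assembled on the lipid dolichol, moved to asparagines of new proteins and trimmed by glucosidases and mannosidases. In the Golgi apparatus the trimmed N-glycan can be extended with N-acetylglucosamine (GlcNAc), galactose and fucose, mucin-type O-glycans are begun with N-acetylgalactosamine (GalNAc), and glycosaminoglycan chains are begun with xylose and later sulfated. A separate route builds the glycosylphosphatidylinositol (GPI) anchor that holds proteins on the cell surface. The text pattern also takes in enzymes that act on lipids, hormones or small molecules, and lysosomal hydrolases that take glycans apart.

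The depth was alike, with 9.79 M reads assigned to a single model in molestus and 10.17 M in quinquefasciatus, spread over 14834 and 15438 listed models. Levels are given as deposited RPKM, the read number divided by model length in kilobases and by the assigned reads of the library in M (mega). This allows for model length and depth, but comparisons between the libraries also depend on their scaling, as given below. On a 1 kb model, a floor of 3 reads is 0.307 RPKM for molestus and 0.295 RPKM for quinquefasciatus. Tissue markers differed widely between the libraries. Trypsins of the midgut summed to 2417 RPKM in molestus and 14362 RPKM in quinquefasciatus, with 3 of 60 compared models at least 2-fold higher in molestus and 33 in quinquefasciatus. Cyclins A and B, replication licensing factors and ribonucleotide reductase, which are abundant in dividing cells such as those of the ovary, summed to 6097 RPKM in molestus and 1141 RPKM in quinquefasciatus, with 17 of 23 compared models higher in molestus and 0 in quinquefasciatus. Muscle markers summed to 1331 RPKM in molestus and 2691 RPKM in quinquefasciatus, opsins of the eye to 9388 RPKM in molestus and 18613 RPKM in quinquefasciatus, and odorant binding proteins of the antenna to 296 RPKM in molestus and 910 RPKM in quinquefasciatus. Salivary proteins summed to 1329 RPKM in molestus and 1293 RPKM in quinquefasciatus, but 1 of 17 compared models was at least 2-fold higher in molestus and 9 in quinquefasciatus, with a median log2 ratio of -1.03. Fat body proteins summed to 557 RPKM in molestus and 439 RPKM in quinquefasciatus, while the median over their 6 compared models was -0.56, opposite in sign to the sums. Among these lists, 17 of 97 trypsin models were at 0 reads in molestus and 9 in quinquefasciatus. The part of tissue composition in the values below was not tested, and more cells of a type and more RNA per cell cannot be told apart in such pooled samples.

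The glycosylation models were mostly expressed at low to moderate levels. They ranged between 0 and 108 RPKM in molestus, with a median of 5.53, and between 0.0675 and 66.9 RPKM in quinquefasciatus, with a median of 6.72. At least 10 RPKM was reached by 44 models in molestus and 41 in quinquefasciatus. The whole group held 0.248% of molestus reads (exact Clopper-Pearson 95% interval 0.244 to 0.251) and 0.195% of quinquefasciatus reads (0.192 to 0.198). Its summed RPKM was 1768 in molestus and 1312 in quinquefasciatus, a ratio of 1.35, while the sum over all models gave a ratio of 0.872. That ratio over all models depended on the most abundant ones. With 116 of these left out, equal sums took a log2 shift of -0.24 of the molestus values. The remaining models thus summed higher in molestus, as the members did. Across the 109 members compared below, the levels of the libraries correlated with a Pearson r of 0.751 and a Spearman rho of 0.751 on the log2(RPKM + 1) scale, against 0.838 and 0.826 across all compared models, as a description over models that are not independent replicates. Intervals here and below cover counting error only, since amplified reads without molecular identifiers are not independent molecules.

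Models were compared by the log2 of the molestus over the quinquefasciatus value of (RPKM + 1) where at least 1 RPKM was reached in at least 1 library, which kept 109 of the 119 members. Adding 1 pulls the ratios of low models towards equality. At least 2-fold higher on this scale were 22 members in molestus and 18 in quinquefasciatus, that is 20.2% and 16.5% of those compared, against 22.8% and 18.0% of all 12789 compared models. Both shares lay near the background of the whole table. The median log2 ratio was 0.08 with quartiles of -0.69 and 0.85, against a median of 0.18 with quartiles of -0.73 and 0.93 over all compared models. The direction of this small median depended on the scaling, since 3 rescalings of the libraries turned it to between -0.12 and -0.08 and changed the counts to 15 in molestus and 25 in quinquefasciatus after rescaling by the median ratio, and to 16 in molestus and 23 in quinquefasciatus by trimmed mean of M-values (TMM) factors. The whole table moved the same way. With the median-ratio shift, 2002 of its 12672 compared models passed in molestus and 2942 in quinquefasciatus, with a median of -0.10. With the TMM shift, 2145 and 2818 of 12700 passed, with a median of -0.05. Molestus held 37.5% of the members' calls and 40.5% of all calls in the former case, and 41.0% and 43.2% in the latter. Rescaled counts of roles and classes below are to be read against these counts, not against 22.8% and 18.0%. Of the 22 members higher in molestus, 15 stayed at least 2-fold higher under all 3 rescalings. Each rescaling lowered the molestus values, with log2 shifts of -0.30 to -0.24. The 18 members higher in quinquefasciatus could therefore not drop out, and their staying is no check on them. The counting interval of the fold lay on the same side of 1 for 21 of the 22 and 18 of the 18. The exception was the sulfotransferase sult1b model CPIJ017860, with 5 molestus reads and 1 quinquefasciatus read.

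**Figure D1:**
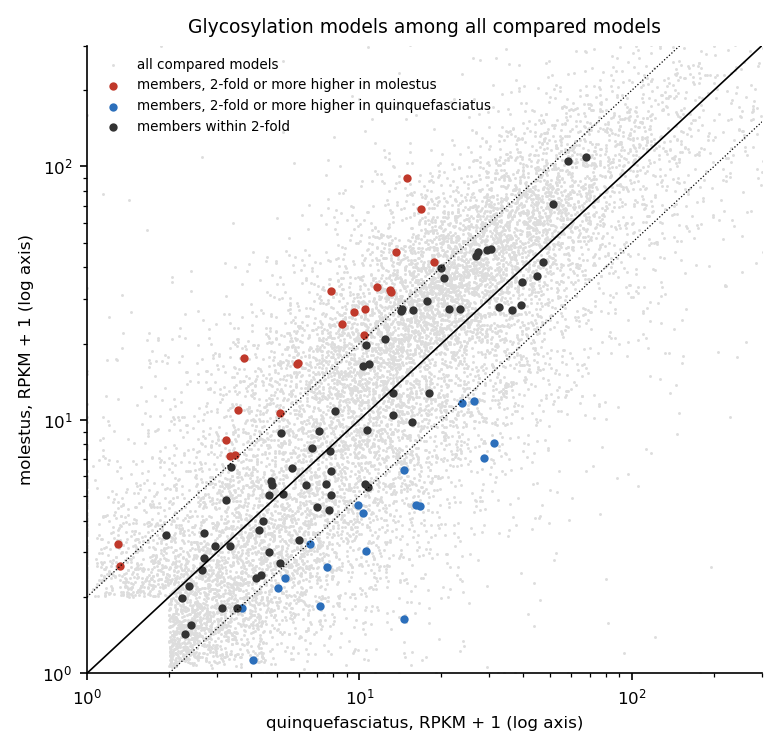
Level of each model in the molestus (vertical axis) and the quinquefasciatus library (horizontal axis), as RPKM + 1 on log axes, for all compared models in grey and the 109 compared glycosylation models in colour. The solid line marks equal levels and the dotted lines 2-fold differences; 22 members lie above the upper and 18 below the lower dotted line. The most abundant models of the tables lie outside the plotted range.

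The balance among the members differed between classes of level. Among the 26 members with a mean of 20 RPKM or more over the libraries, 7 were at least 2-fold higher in molestus and 0 in quinquefasciatus, with a median log2 ratio of 0.73. Among all models of that level 29.1% were higher in molestus and 10.5% in quinquefasciatus, with a median of 0.52. Among the 44 members with a mean of 5 to 20 RPKM, 10 were higher in molestus and 11 in quinquefasciatus, and among the 39 members below a mean of 5 RPKM the counts were 5 in molestus and 7 in quinquefasciatus. These are 22.7% and 25% of the members of the middle class and 12.8% and 17.95% of those of the lowest, against 24.3% and 18.9% and against 12.8% and 27.1% of all models of these levels, each pair with molestus and then quinquefasciatus. Over all models the medians of these 2 lower classes were 0.21 and -0.46, against -0.06 and -0.17 over the members.

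**Figure D2:**
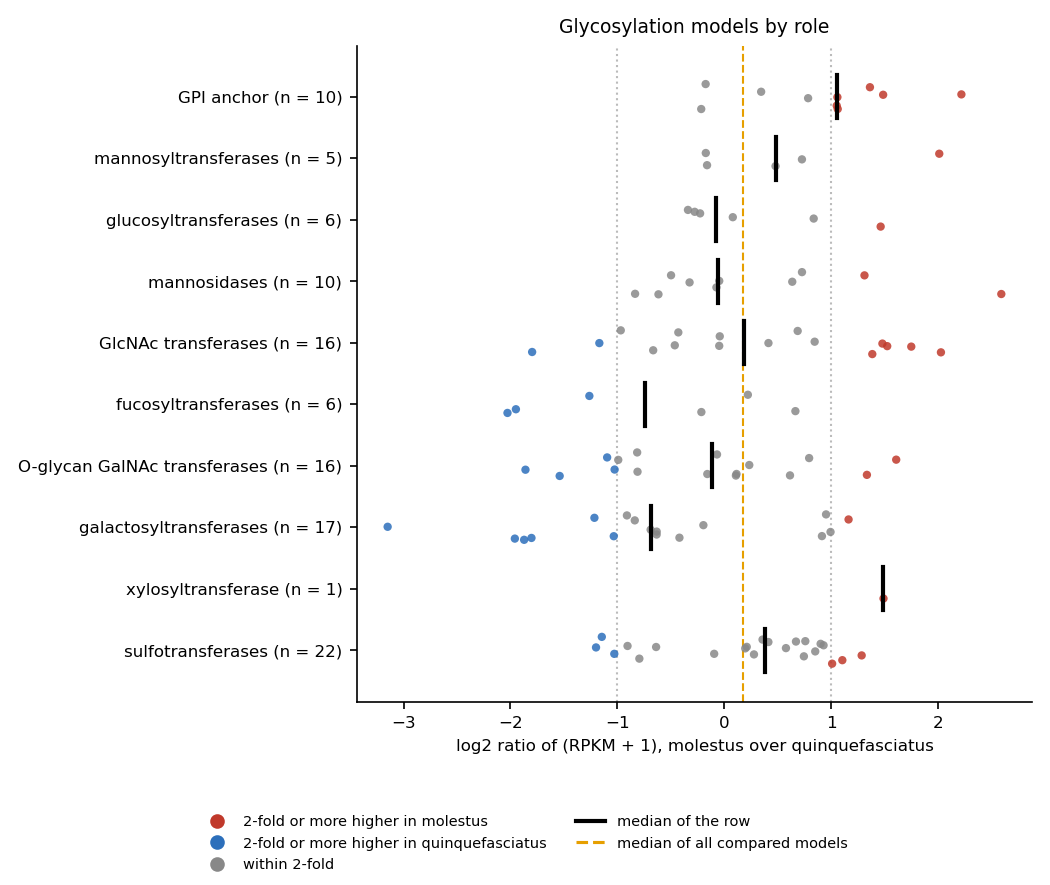
Log2 of (RPKM + 1) in molestus over that in quinquefasciatus for each compared glycosylation model, sorted into rows by role. Black bars mark the median of a row, the dashed line the median of all compared models (0.18), and dotted lines a 2-fold difference. GPI anchor models lie mostly to the right, and fucosyltransferases and galactosyltransferases mostly to the left.

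Of 4 models for steps on dolichol, 2 (50%) were at least 2-fold higher in molestus and 0 in quinquefasciatus, against 22.8% and 18.0% of all models. Dolichol-phosphate mannosyltransferase makes the mannose donor used inside the endoplasmic reticulum, and the short model described as its subunit (CPIJ008701) stood at 67.0 RPKM (187 reads) in molestus against 15.9 RPKM (46 reads) in quinquefasciatus, 4.22-fold higher (95% interval 3.04 to 5.96). The model that carries the name of the enzyme itself (CPIJ002650), the most abundant mannosyltransferase, stood at 70.3 RPKM in molestus against 50.1 RPKM in quinquefasciatus, a fold of 1.40 (1.23 to 1.60). Dolichyl-phosphate beta-glucosyltransferase (CPIJ000837), which makes the matching glucose donor, stood at 22.9 RPKM (253 reads) in molestus against 7.66 RPKM (88 reads) in quinquefasciatus, 2.99-fold higher (2.33 to 3.85). Chitobiosyldiphosphodolichol beta-mannosyltransferase (CPIJ007482), which adds the initial mannose of the dolichol-linked chain, stood at 28.3 RPKM in molestus against 16.7 RPKM in quinquefasciatus, a fold of 1.69 (1.44 to 1.99). These 4 models were grouped after their values were seen, and their counting intervals lay above 1 at the deposited scaling. The remaining mannosyltransferases were close to equal. The beta-1,4-mannosyltransferase egh (CPIJ019153), which in Drosophila adds mannose to glycolipids, stood at 41.1 RPKM in molestus and 46.1 RPKM in quinquefasciatus, and a protein O-mannosyltransferase (CPIJ005897) at 0.989 RPKM in molestus and 1.24 RPKM in quinquefasciatus. Over the 5 compared models of the mannosyltransferase class, 1 (20%) was at least 2-fold higher in molestus and 0 in quinquefasciatus.

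Among the 10 models of GPI anchor synthesis, all compared, 6 (60%) were at least 2-fold higher in molestus and 0 in quinquefasciatus. The shares over all compared models were 22.8% and 18.0%. The median log2 ratio of the GPI models was 1.06. Under each of the 3 rescalings 3 of the 10 GPI models in molestus and 0 in quinquefasciatus passed, with medians between 0.79 and 0.84. Of 16 compared GlcNAc transferases, 5 in molestus and 3 in quinquefasciatus passed under the same rescalings, with medians between -0.04 and 0.003. The enzyme complex that attaches GlcNAc to phosphatidylinositol and so starts the anchor has several subunits, and 5 models carried its name. Subunit C (CPIJ018411) stood at 16.5 RPKM (138 reads) in molestus against 2.77 RPKM (24 reads) in quinquefasciatus, 5.97-fold higher (3.85 to 9.64). A further subunit C model (CPIJ007412) stood at 6.27 RPKM in molestus against 2.50 RPKM in quinquefasciatus, a fold of 2.50 (1.50 to 4.32). Subunit A (CPIJ005143), the catalytic subunit, stood at 15.6 RPKM (180 reads) in molestus against 4.91 RPKM (59 reads) in quinquefasciatus, 3.17-fold higher (2.35 to 4.33). Subunit H (CPIJ003720) stood at 7.86 RPKM in molestus against 4.14 RPKM in quinquefasciatus, a fold of 1.90 (1.11 to 3.30). The subunits differed in their ratios, since subunit P (CPIJ001255), the most abundant GPI model, stood at 34.1 RPKM (199 reads) in molestus and 38.6 RPKM (234 reads) in quinquefasciatus, 1.13-fold lower with an interval that included 1 (0.933 to 1.37).

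The later GPI steps were split. Of 2 models of the de-N-acetylase, which removes the acetyl group from that GlcNAc, CPIJ011635 stood at 20.7 RPKM in molestus against 9.38 RPKM in quinquefasciatus, 2.20-fold higher in molestus (1.71 to 2.86), and CPIJ015317 at 8.06 RPKM in molestus against 6.13 RPKM in quinquefasciatus, a fold of 1.31 (0.889 to 1.95). GPI mannosyltransferases add the mannoses of the anchor. CPIJ017887 stood at 7.35 RPKM in molestus against 2.25 RPKM in quinquefasciatus, 3.27-fold higher in molestus (1.95 to 5.71), and CPIJ002788 at 9.63 RPKM in molestus against 4.10 RPKM in quinquefasciatus, 2.35-fold higher (1.81 to 3.07). CPIJ013961 stood at 2.69 RPKM in molestus and 3.28 RPKM in quinquefasciatus, 1.22-fold lower with an interval that included 1 (0.795 to 1.89). CPIJ002788, CPIJ007412 and CPIJ011635 were within 2-fold under all 3 rescalings.

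Of the 10 mannosidases, 2 (20%) were at least 2-fold higher in molestus and 0 in quinquefasciatus, against 22.8% and 18.0% of all models, and the median was -0.06. Alpha-1,2-mannosidases remove mannoses from the transferred chain and open it for Golgi extension. CPIJ009935 had the largest log2 ratio among the members at 2.59, with 89.1 RPKM (1261 reads) in molestus against 13.9 RPKM (205 reads) in quinquefasciatus, 6.39-fold higher (5.51 to 7.44). The other 2 alpha-1,2-mannosidases were above 1-fold but within 2-fold. CPIJ006599 stood at 46.3 RPKM in molestus against 29.4 RPKM in quinquefasciatus, a fold of 1.57 (1.37 to 1.81), and CPIJ003661 at 43.3 RPKM in molestus against 25.8 RPKM in quinquefasciatus, a fold of 1.68 (1.50 to 1.88). Together the 3 models summed to 178.6 RPKM in molestus and 69.1 RPKM in quinquefasciatus. The 3 lysosomal alpha-mannosidases, CPIJ015654, CPIJ015655 and CPIJ015656, had log2 ratios of -0.83, -0.07 and -0.32 and summed to 8.89 RPKM in molestus and 12.6 RPKM in quinquefasciatus. The low alpha-mannosidase model CPIJ003442 stood at 2.24 RPKM (78 reads) in molestus against 0.304 RPKM (11 reads) in quinquefasciatus, 7.37-fold higher (3.90 to 15.4). The alpha-mannosidase CPIJ009720, the endo-alpha-mannosidase CPIJ018073 and the beta-mannosidase CPIJ012655 lay within 2-fold, at log2 ratios of -0.05, -0.50 and -0.62.

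Of 6 compared glucosyltransferases, only the dolichyl enzyme given above (16.7%) was at least 2-fold higher in molestus, and 0 were in quinquefasciatus. The shares over all compared models were 22.8% and 18.0%. UDP-glucose:glycoprotein glucosyltransferase (CPIJ007484), which adds glucose back to unfolded glycoproteins, stood at 36.0 RPKM (1618 reads) in molestus and 43.9 RPKM (2046 reads) in quinquefasciatus, 1.22-fold lower (1.14 to 1.30). It was the most abundant glucosyltransferase model in both libraries. The ceramide glucosyltransferases, which begin glycolipids, did not share a direction. CPIJ019694 stood at 35.4 RPKM in molestus against 19.4 RPKM in quinquefasciatus, a fold of 1.83 (1.55 to 2.15), and CPIJ005214 at 8.09 RPKM in molestus against 9.63 RPKM in quinquefasciatus, 1.19-fold lower (0.898 to 1.58). The ecdysteroid glucosyltransferases, which are named for attaching glucose to moulting hormones, lay between log2 ratios of -0.34 and 0.08 for the 2 compared models, and the third (CPIJ015998) stayed below 1 RPKM in both libraries.

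GlcNAc transferases held the largest summed level of any role, at 434 RPKM in molestus and 261 RPKM in quinquefasciatus. Of 16 compared models, 5 (31.25%) were at least 2-fold higher in molestus and 2 (12.5%) in quinquefasciatus, against 22.8% and 18.0% of all models. Under each of the 3 rescalings 5 in molestus and 3 in quinquefasciatus passed. The counts and sums of this role include 3 models of glycosylasparaginase, a lysosomal hydrolase taken in by the text pattern, which summed to 45.9 RPKM in molestus and 31.7 RPKM in quinquefasciatus and gave 1 of the 5 called models. The O-GlcNAc transferase (CPIJ004574), which attaches single GlcNAc residues to nuclear and cytosolic proteins, was the most abundant member of the whole set in both libraries. It stood at 108 RPKM (2668 reads) in molestus and 66.9 RPKM (1712 reads) in quinquefasciatus, a fold of 1.62 (1.52 to 1.72). The betaGal beta-1,3-GlcNAc transferase CPIJ019093 followed at 104 RPKM in molestus against 57.2 RPKM in quinquefasciatus, a fold of 1.81 (1.64 to 2.001). Both lay within 2-fold.

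The N-glycan branching enzymes went in opposite directions. The alpha-1,3-mannosyl-glycoprotein 2-beta-GlcNAc transferase (CPIJ003929) adds the initial GlcNAc of hybrid and complex N-glycans. It stood at 44.9 RPKM (615 reads) in molestus against 12.7 RPKM (180 reads) in quinquefasciatus, 3.55-fold higher (3.001 to 4.21). The 4-beta-GlcNAc transferase B (CPIJ009168), which adds a further branch, stood at 31.2 RPKM (505 reads) in molestus against 6.89 RPKM (116 reads) in quinquefasciatus, 4.52-fold higher (3.69 to 5.58). The next enzyme on the other arm, beta-1,2-GlcNAc transferase II, had 2 models. CPIJ003883 stood at 4.11 RPKM in molestus and 4.26 RPKM in quinquefasciatus, and the short model CPIJ003884 at 2.03 RPKM (8 reads) in molestus against 9.54 RPKM (39 reads) in quinquefasciatus, 4.69-fold lower (2.16 to 11.6). The beta-1,4-mannosyl-glycoprotein 4-beta-GlcNAc transferase (CPIJ000919), which in vertebrates adds the bisecting GlcNAc, stood at 1.37 RPKM (18 reads) in molestus against 4.34 RPKM (59 reads) in quinquefasciatus, 3.16-fold lower (1.84 to 5.69).

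Among enzymes that extend chains with beta-1,3-linked GlcNAc, CPIJ011278 stood at 25.7 RPKM in molestus against 8.58 RPKM in quinquefasciatus, 2.997-fold higher in molestus (2.37 to 3.82). CPIJ004149 stood at 26.5 RPKM in molestus against 9.52 RPKM in quinquefasciatus, 2.78-fold higher (2.31 to 3.36). CPIJ004148, the neighbour of CPIJ004149 in numbering, stood at 1.56 RPKM in molestus and 1.65 RPKM in quinquefasciatus. CPIJ017866 stood at 0.816 RPKM in molestus against 2.55 RPKM in quinquefasciatus, and CPIJ019878 was below 1 RPKM in both. CPIJ015130 stood at 27.5 RPKM in molestus and 38.3 RPKM in quinquefasciatus, 1.39-fold lower (1.248 to 1.55). The model named after Radical fringe (CPIJ010821), a type of enzyme that lengthens the O-fucose of the Notch receptor, stood at 9.83 RPKM in molestus and 7.13 RPKM in quinquefasciatus with an interval of the fold that included 1 (0.948 to 2.02). Of the 3 glycosylasparaginases, CPIJ012618 stood at 32.4 RPKM in molestus against 10.6 RPKM in quinquefasciatus, 3.05-fold higher in molestus (2.47 to 3.80). The other 2, CPIJ003183 and CPIJ015646, had log2 ratios of -0.43 and -0.66.

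**Figure D3:**
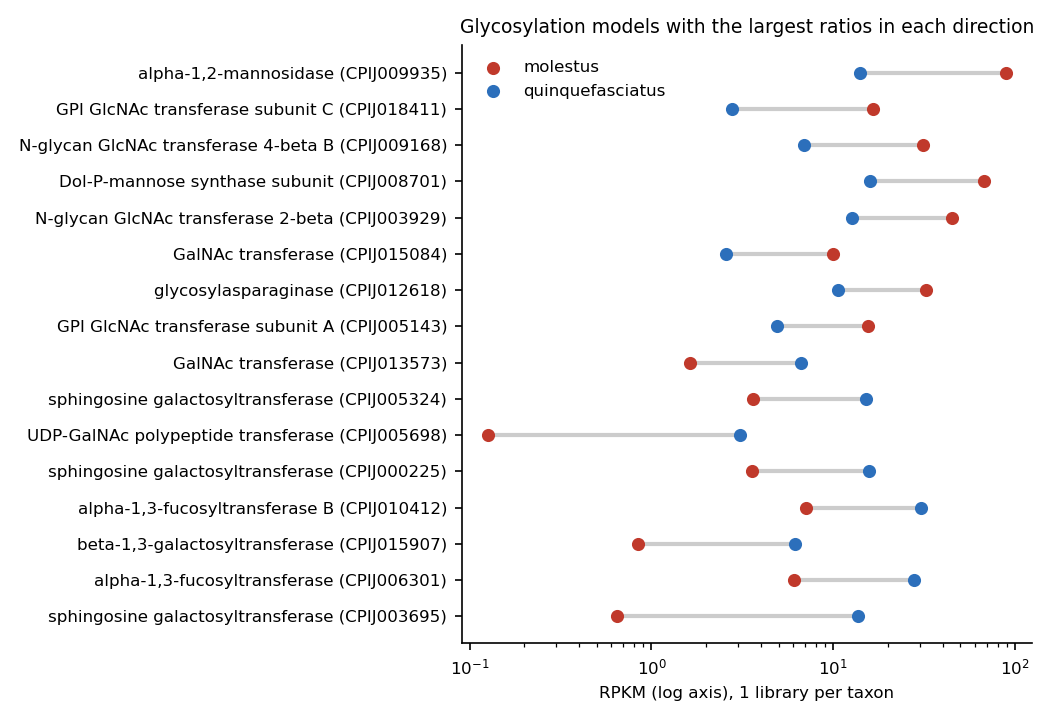
RPKM (log axis) of the 16 glycosylation models with the largest log2 ratios in each direction, 8 higher in molestus and 8 higher in quinquefasciatus, among those with at least 50 reads in the higher library. Red points are the molestus and blue points the quinquefasciatus library, 1 library each, without error bars; the counting intervals stand in the text.

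Fucosyltransferases divided by linkage. Alpha-1,3-fucosyltransferases, a family that in insects includes the enzyme of a core fucose absent from mammalian N-glycans, were lower in molestus for all 3 compared models. CPIJ006301 stood at 6.05 RPKM (72 reads) in molestus against 27.8 RPKM (343 reads) in quinquefasciatus, 4.59-fold lower (3.55 to 5.999). CPIJ010412, named fucosyltransferase B, stood at 7.08 RPKM (79 reads) in molestus against 30.2 RPKM (350 reads) in quinquefasciatus, 4.27-fold lower (3.33 to 5.52). The glycoprotein 3-alpha-L-fucosyltransferase A (CPIJ013202) stood at 3.29 RPKM in molestus against 9.30 RPKM in quinquefasciatus, 2.82-fold lower (1.99 to 4.07). The remaining 2 models of this linkage, CPIJ006298 and CPIJ006300, had at most 9 reads in either library and were not compared. The alpha-1,6-fucosyltransferase (CPIJ008380), which attaches the core fucose shared with mammals, was close to equal, at 27.0 RPKM (455 reads) in molestus and 31.5 RPKM (551 reads) in quinquefasciatus, 1.17-fold lower (1.03 to 1.32). The O-fucosyltransferases, which modify folded repeats of proteins such as Notch and thrombospondin-like proteins, had folds of 1.65 (1.30 to 2.10) for type 1 (CPIJ013732) and 1.19 (0.876 to 1.63) for type 2 (CPIJ010627). Over the 6 compared fucosyltransferases, 0 were at least 2-fold higher in molestus and 3 (50%) in quinquefasciatus, and the median was -0.74. The shares over all compared models were 22.8% and 18.0%. These counts did not change under the 3 rescalings, which lowered molestus values and so could not remove a model higher in quinquefasciatus.

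Polypeptide GalNAc transferases, which begin mucin-type O-glycans, were spread over both directions. Of 16 models, all compared, 2 (12.5%) were at least 2-fold higher in molestus and 4 (25%) in quinquefasciatus. The shares over all compared models were 22.8% and 18.0%. The median of the 16 models was -0.11. After rescaling by the median ratio 2 in molestus and 6 in quinquefasciatus passed. The 35A model (CPIJ017883) was the most abundant, at 31.5 RPKM (625 reads) in molestus against 11.9 RPKM (245 reads) in quinquefasciatus, 2.65-fold higher (2.28 to 3.08). CPIJ015084 stood at 9.92 RPKM (74 reads) in molestus against 2.58 RPKM (20 reads) in quinquefasciatus, 3.84-fold higher (2.32 to 6.65). Both were thus higher in molestus. The further abundant models CPIJ007696 and CPIJ014647 stood at 26.2 and 26.4 RPKM in molestus and at 14.7 and 22.3 RPKM in quinquefasciatus. The fold was 1.78 (1.53 to 2.08) for CPIJ007696 and 1.18 (0.993 to 1.41) for CPIJ014647, which dropped below 1 after rescaling by the median ratio.

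Lower in molestus among the GalNAc transferases were mostly models of low level. CPIJ005698 stood at 0.126 RPKM (2 reads) in molestus against 3.09 RPKM (51 reads) in quinquefasciatus, a 24.6-fold lower value with a wide interval (6.46 to 208). Its neighbours in numbering, CPIJ005697 and CPIJ005699, were 2.31-fold (1.35 to 4.11) and 1.98-fold (1.42 to 2.77) lower and did not pass the threshold on the (RPKM + 1) scale. The 3 models share their description, and reads that match several copies would not be uniquely assigned, so the division among them is uncertain. CPIJ013573 stood at 1.62 RPKM (29 reads) in molestus against 6.62 RPKM (123 reads) in quinquefasciatus, 4.08-fold lower (2.71 to 6.35). CPIJ005231 and CPIJ009181 were 2.45-fold (1.83 to 3.31) and 2.13-fold (1.79 to 2.56) lower. CPIJ001654 lay just short of the threshold at a log2 ratio of -0.99. The remaining models, CPIJ005229, CPIJ005695, CPIJ007695, CPIJ009408 and CPIJ013569, lay within 2-fold at log2 ratios of 0.11, -0.07, 0.62, -0.16 and 0.11.

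Of 17 compared galactosyltransferases, 1 (5.88%) was at least 2-fold higher in molestus and 6 (35.3%) in quinquefasciatus, with a median of -0.69. The shares over all compared models were 22.8% and 18.0%. Under each of the 3 rescalings 0 galactosyltransferases in molestus and 8 in quinquefasciatus passed. All 4 models named 2-hydroxyacylsphingosine 1-beta-galactosyltransferase, after the vertebrate enzyme that makes galactosylceramide, were among the 6. By name they act on lipids and not on proteins. CPIJ003695 had the most negative log2 ratio among the members, -3.15, with 0.646 RPKM (8 reads) in molestus against 13.6 RPKM (175 reads) in quinquefasciatus, 21.1-fold lower (10.5 to 49.6). CPIJ000225 stood at 3.56 RPKM (57 reads) in molestus against 15.7 RPKM (261 reads) in quinquefasciatus, 4.41-fold lower (3.30 to 5.98). CPIJ005324 stood at 3.63 RPKM in molestus against 15.1 RPKM in quinquefasciatus, 4.18-fold lower (3.11 to 5.69), and CPIJ000226 at 1.16 RPKM in molestus against 4.02 RPKM in quinquefasciatus, 3.45-fold lower (1.99 to 6.31). As a group they summed to 8.996 RPKM in molestus and 48.5 RPKM in quinquefasciatus.

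Galactosyltransferases named for protein or glycan acceptors went both ways. The glycoprotein-GalNAc 3-beta-galactosyltransferase, or core 1 enzyme, adds galactose to the GalNAc of O-glycans. Its model CPIJ003116, the most abundant galactosyltransferase in molestus, stood at 41.0 RPKM (489 reads) in molestus against 17.8 RPKM (220 reads) in quinquefasciatus, 2.31-fold higher (1.97 to 2.72), but was within 2-fold under all 3 rescalings. A further model of that name (CPIJ017493) stood at 2.22 RPKM in molestus against 5.60 RPKM in quinquefasciatus, 2.52-fold lower in molestus (1.58 to 4.12), and a model described as core 1 galactosyltransferase (CPIJ015759) at 4.07 RPKM in molestus against 6.86 RPKM in quinquefasciatus, 1.68-fold lower (1.31 to 2.18). The beta-1,3-galactosyltransferases were as divided. CPIJ010407 stood at 38.6 RPKM in molestus against 18.9 RPKM in quinquefasciatus, a fold of 2.04 (1.73 to 2.41) that lay at a log2 ratio of 0.99 on the (RPKM + 1) scale. CPIJ015907 stood at 0.846 RPKM (12 reads) in molestus against 6.18 RPKM (91 reads) in quinquefasciatus, 7.30-fold lower (3.98 to 14.6). The model named after brn (CPIJ018702), which in Drosophila acts after egh on glycolipids, stood at 4.56 RPKM in molestus and 5.37 RPKM in quinquefasciatus. The 2 beta-1,4-galactosyltransferases differed in direction, with CPIJ014764 at 25.8 RPKM in molestus against 13.2 RPKM in quinquefasciatus, a fold of 1.95 (1.60 to 2.38), and CPIJ015322 at 26.1 RPKM in molestus against 35.3 RPKM in quinquefasciatus, 1.35-fold lower (1.15 to 1.59). Within 2-fold were also CPIJ002407 and CPIJ009665, described as beta-1,3-galactosyltransferases, at log2 ratios of -0.69 and 0.95, and CPIJ006849 and CPIJ006850, of unspecified linkage, at -0.84 and -0.63. Lactosylceramide 4-alpha-galactosyltransferase, an enzyme of glycolipids, stood at 4.56 RPKM in molestus against 9.46 RPKM in quinquefasciatus for CPIJ019517, 2.07-fold lower (1.56 to 2.78), and was below 1 RPKM in both libraries for CPIJ001089.

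Xylose starts the linker of heparan and chondroitin sulfate chains. The only xylosyltransferase model, oxt (CPIJ019812), stood at 15.7 RPKM (386 reads) in molestus against 4.98 RPKM (127 reads) in quinquefasciatus, 3.16-fold higher (2.58 to 3.89). No listed description matched a sialyltransferase, and 0 models fell outside the named roles.

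Sulfotransferases were the largest role with 27 models, of which 22 were compared. At least 2-fold higher were 3 in molestus and 3 in quinquefasciatus, 13.6% each, against 22.8% and 18.0% of all models. After rescaling by the median ratio 0 sulfotransferases in molestus and 4 in quinquefasciatus passed. The median was 0.39. Heparan sulfate sulfotransferases place sulfates along the chain, and the bifunctional N-deacetylase/N-sulfotransferase acts before the O-sulfotransferases. This enzyme (CPIJ008241) was the sulfotransferase with the most reads, at 44.95 RPKM (1348 reads) in molestus against 26.2 RPKM (815 reads) in quinquefasciatus, a fold of 1.72 (1.57 to 1.88). The model named heparin sulfate O-sulfotransferase (CPIJ005815) stood at 19.8 RPKM in molestus against 11.4 RPKM in quinquefasciatus, a fold of 1.74 (1.43 to 2.11). The 3 models of the 6-O-sulfotransferase, CPIJ012168, CPIJ012169 and CPIJ012170, had folds of 1.96 (1.42 to 2.72), 1.71 (0.904 to 3.33) and 1.30 (0.984 to 1.71). They carry consecutive identifiers and lengths of 624, 744 and 468 bases. The 3-O-sulfotransferase models, which add a rare late sulfate, went the other way. CPIJ008491 stood at 0.815 RPKM (9 reads) in molestus against 2.70 RPKM (31 reads) in quinquefasciatus, 3.32-fold lower (1.54 to 7.92), and CPIJ017207 at 0.549 RPKM in molestus against 1.41 RPKM in quinquefasciatus, 2.57-fold lower with an interval that included 1 (0.954 to 8.01). Of the 7 compared heparan sulfate models, 0 were at least 2-fold higher in molestus and 1 (14.3%) in quinquefasciatus. The 2-O-sulfotransferase (CPIJ000310) was below 1 RPKM in both.

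The carbohydrate sulfotransferases, named for sugar acceptors, went both ways. CPIJ000874, CPIJ000876 and CPIJ000877 stood at 26.4, 30.8 and 45.9 RPKM in molestus against 13.4, 12.1 and 28.5 RPKM in quinquefasciatus, and only CPIJ000876 passed the threshold, at 2.56-fold higher (1.75 to 3.81). It was within 2-fold after rescaling by the median ratio. CPIJ002167 and CPIJ004782 stood at 5.34 and 10.9 RPKM in molestus against 13.6 and 25.3 RPKM in quinquefasciatus, 2.54-fold (1.87 to 3.50) and 2.32-fold (1.92 to 2.83) lower. CPIJ000775 stood at 4.55 RPKM in molestus and 3.80 RPKM in quinquefasciatus. The 2 tyrosine sulfotransferases, which modify secreted proteins, had intervals that included 1, with 4.73 and 5.48 RPKM in molestus and 3.73 and 4.65 RPKM in quinquefasciatus for CPIJ014255 and CPIJ017505. The 11 sulfotransferases whose description names no carbohydrate or tyrosine acceptor, such as the 1A1 and sult1b models, were low throughout. They summed to 17.2 RPKM in molestus and 13.9 RPKM in quinquefasciatus, and the highest in molestus was the 1A1 model CPIJ010999, at 6.20 RPKM in molestus against 2.35 RPKM in quinquefasciatus, a fold of 2.64 (1.62 to 4.43). The highest in quinquefasciatus was the 1A1 model CPIJ017859, at 1.72 RPKM in molestus against 4.10 RPKM in quinquefasciatus. An estrogen sulfotransferase model (CPIJ012993) had 0 molestus and 3 quinquefasciatus reads, and a 4A1 model (CPIJ011001) 0 molestus reads and 1 quinquefasciatus read, at or below the floor of 3 reads in both libraries, so no fold is given.

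The share of a model covered by reads was a further measure that did not enter the choice of members. Among the 63 members with at least 50 reads in both libraries the median coverage was 90.5% in molestus and 92.7% in quinquefasciatus, against 94.3% and 94.25% over the 7950 models of the same minimum. Taking each library alone, 21 of 76 members with at least 50 reads in molestus (27.6%) and 11 of 76 in quinquefasciatus (14.5%) were covered over 20 points less than evenly placed reads of 90 bases would cover, against 18.7% and 18.6% of all models. Coverage was at least 10 percentage points lower in molestus for 9 of the 63 and at least 10 points higher for 6, that is 14.3% and 9.52%, against 8.63% and 7.71% over all models. CPIJ000225, the sphingosine galactosyltransferase, stood furthest out, with 39.1% covered by 57 molestus reads and 95.8% covered by 261 quinquefasciatus reads. Evenly placed, 57 reads would have covered 96.0% of it. Models with like numbers of reads also differed in coverage. The O-fucosyltransferase 2 model (CPIJ010627) was covered to 73.2% by 92 molestus and to 94.7% by 80 quinquefasciatus reads, and the GalNAc transferase CPIJ013569 to 75.4% by 72 molestus and to 97.4% by 68 quinquefasciatus reads. The opposite held for GlcNAc transferase II (CPIJ003883), covered to 83.45% by 52 molestus and to 70.8% by 56 quinquefasciatus reads, and for the ceramide glucosyltransferase CPIJ005214, covered to 76.6% by 93 molestus and to 53.45% by 115 quinquefasciatus reads. Among the 14 members whose reads differed by at most 1.25-fold, 2 were at least 10 points lower and 2 at least 10 points higher in molestus. Among all 1709 models with like reads, 126 were lower and 94 higher by that much. In CPIJ015907 much of the model was uncovered in both libraries, with 33.5% covered by 12 molestus and 38.0% by 91 quinquefasciatus reads. CPIJ015084 was covered to 51.8% in molestus and 39.1% in quinquefasciatus, so its level rests on part of the model too. The models carry identifiers of a Culex quinquefasciatus genome annotation, and the part of sequence differences between the taxa in these values was not tested.

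**Figure D4:**
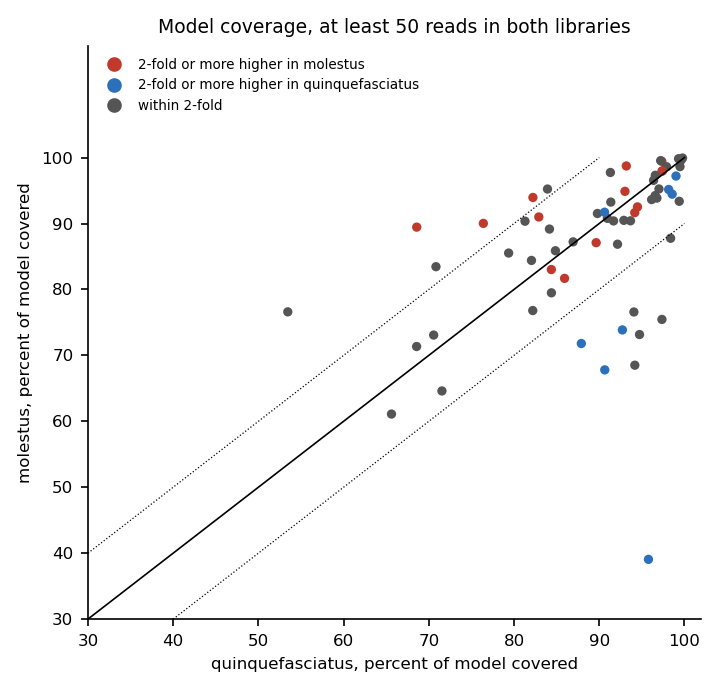
Percent of the length of each glycosylation model covered by reads of the molestus (vertical axis) and the quinquefasciatus library (horizontal axis), for the 63 models with at least 50 reads in both. The solid line marks equal coverage and dotted lines 10 points of difference; 9 models lie below the lower and 6 above the upper dotted line, the furthest being CPIJ000225 at 39.1% in molestus and 95.8% in quinquefasciatus.

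Other genes of the pathway were taken from a list of 7 classes of descriptions outside the members, which matched 69 models, 66 of them compared. At least 2-fold higher were 11 (16.7%) in molestus and 5 (7.58%) in quinquefasciatus, against 22.8% and 18.0% of all compared models, and the counts became 9 in molestus and 8 in quinquefasciatus after rescaling by the median ratio. The class of models described as dolichol-linked had a median log2 ratio of 0.61 over 13 models, with 2 at least 2-fold higher in molestus and 0 in quinquefasciatus. It includes the subunits of oligosaccharyltransferase, the complex that moves the finished chain to the protein, because their descriptions begin with dolichyl and the separate class for oligosaccharyltransferase matched 0 models. The 48 kDa subunit (CPIJ005168) stood at 192 RPKM in molestus against 109 RPKM in quinquefasciatus, a fold of 1.76 (1.66 to 1.87), and the 67 kDa subunit (CPIJ003124) at 189 RPKM in molestus against 137 RPKM in quinquefasciatus, a fold of 1.38 (1.30 to 1.46). Of the catalytic subunits, STT3A (CPIJ015587) stood at 73.2 RPKM in molestus against 21.5 RPKM in quinquefasciatus, 3.41-fold higher in molestus (3.07 to 3.79). STT3B (CPIJ008679), named after its values were seen, stood at 60.1 RPKM in molestus against 44.7 RPKM in quinquefasciatus, a fold of 1.35 (1.25 to 1.45). Not all subunits were higher, since CPIJ000179 stood at 173.6 RPKM in molestus and 178.3 RPKM in quinquefasciatus and CPIJ003512 at 73.6 RPKM in molestus and 74.3 RPKM in quinquefasciatus, both named after their values were seen.

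Of the 16 models in the class for sugar donor synthesis, 3 (18.75%) were at least 2-fold higher in molestus and 1 (6.25%) in quinquefasciatus. The shares over all compared models were 22.8% and 18.0%. The text pattern of the class also took in enzymes of other steps, all within 2-fold. They were N-acetylglucosamine-6-phosphate deacetylase (CPIJ009741), glucosamine-6-phosphate isomerase (CPIJ008074) and 3'-phosphoadenosine 5'-phosphosulfate synthetase (CPIJ006069). Mannose-1-phosphate guanyltransferase (CPIJ012815), which makes GDP-mannose, stood at 51.5 RPKM (531 reads) in molestus against 10.6 RPKM (114 reads) in quinquefasciatus, 4.84-fold higher (3.94 to 5.98). On the same route, and named after its values were seen, mannose-6-phosphate isomerase (CPIJ006375) stood at 60.1 RPKM in molestus against 16.4 RPKM in quinquefasciatus, 3.67-fold higher (3.13 to 4.33). Phosphomannomutase (CPIJ006768), named likewise, stood at 43.2 RPKM in molestus against 23.3 RPKM in quinquefasciatus, a fold of 1.86 (1.60 to 2.16), within 2-fold on the (RPKM + 1) scale. The third donor model called higher in molestus was UDP-glucose 6-dehydrogenase (CPIJ002992), named likewise. It stood at 74.5 RPKM in molestus against 27.7 RPKM in quinquefasciatus, 2.69-fold higher (2.40 to 3.03). Also named after their values were seen, 2 models of glucosamine--fructose-6-phosphate aminotransferase were lower in molestus. CPIJ006770, the 1 donor model called higher in quinquefasciatus, stood at 6.61 RPKM in molestus against 16.5 RPKM in quinquefasciatus, 2.50-fold lower (2.09 to 3.01). CPIJ006769 was 1.96-fold lower (1.76 to 2.18). The 2 donor models with the highest RPKM in either library were not higher by 2-fold, with glucosamine 6-phosphate N-acetyltransferase (CPIJ009417) at 93.6 RPKM in molestus and 90.3 RPKM in quinquefasciatus and phosphoglucomutase (CPIJ005681) at 56.2 RPKM in molestus and 89.5 RPKM in quinquefasciatus. Sugar nucleotide transporters carry the donors into the Golgi, and 3 of 6 (50%) were at least 2-fold higher in molestus and 0 in quinquefasciatus. The UDP-galactose transporter model CPIJ015985 stood at 8.54 RPKM in molestus against 1.31 RPKM in quinquefasciatus, 6.49-fold higher in molestus (3.81 to 11.8), and CPIJ004646 at 40.3 RPKM in molestus against 16.1 RPKM in quinquefasciatus, 2.50-fold higher (2.08 to 3.02). The abundant CPIJ006257 stood at 35.6 RPKM in molestus and 35.2 RPKM in quinquefasciatus.

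The chaperones and hydrolases of the pathway differed less or ran the other way. Calreticulin (CPIJ007376) and calnexin (CPIJ009164), which hold glucosylated glycoproteins during folding, stood at 355 and 110 RPKM in molestus and at 325 and 169 RPKM in quinquefasciatus. Calnexin was thus 1.54-fold lower in molestus (1.46 to 1.63). The class of these chaperones also took in 6 models of adrenergic receptors and receptor kinases through its text pattern, and both models of the class that were at least 2-fold higher in molestus were such kinases, among them CPIJ004653 at 3.53-fold (2.73 to 4.62). Of 12 lysosomal hydrolase models, 0 were at least 2-fold higher in molestus and 2 (16.7%) in quinquefasciatus, with a median of -0.53. The shares over all compared models were 22.8% and 18.0%. The class includes 3 models described as chitooligosaccharidolytic, that is chitin-degrading by name, of which 1 is among the 2. Beta-hexosaminidase (CPIJ016910), their most abundant model, stood at 33.3 RPKM in molestus and 28.3 RPKM in quinquefasciatus, and the chitooligosaccharidolytic model CPIJ001041 at 0.111 RPKM (2 reads) in molestus against 3.26 RPKM (61 reads) in quinquefasciatus, 29.4-fold lower (7.79 to 248). The other of the 2 was a further beta-hexosaminidase model (CPIJ016911), named after its values were seen. It stood at 0.700 RPKM (11 reads) in molestus against 3.74 RPKM (61 reads) in quinquefasciatus, 5.34-fold lower (2.78 to 11.3). Among proteoglycans and the enzymes that polymerise their chains, 1 of 10 (10%) was at least 2-fold higher in molestus and 2 (20%) in quinquefasciatus. Exostosin-2, a polymerase of heparan sulfate, had models CPIJ009765, 3.22-fold higher in molestus (2.34 to 4.49) at 17.8 RPKM in molestus against 5.54 RPKM in quinquefasciatus, and CPIJ012734, at 26.2 RPKM in molestus and 23.3 RPKM in quinquefasciatus. The 2 called higher in quinquefasciatus were named after their values were seen. Chondroitin sulfate proteoglycan 4 (CPIJ000353) was 5.14-fold lower in molestus (3.62 to 7.48), and chondroitin synthase (CPIJ019283) 2.77-fold lower (1.92 to 4.07).

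**Figure D5:**
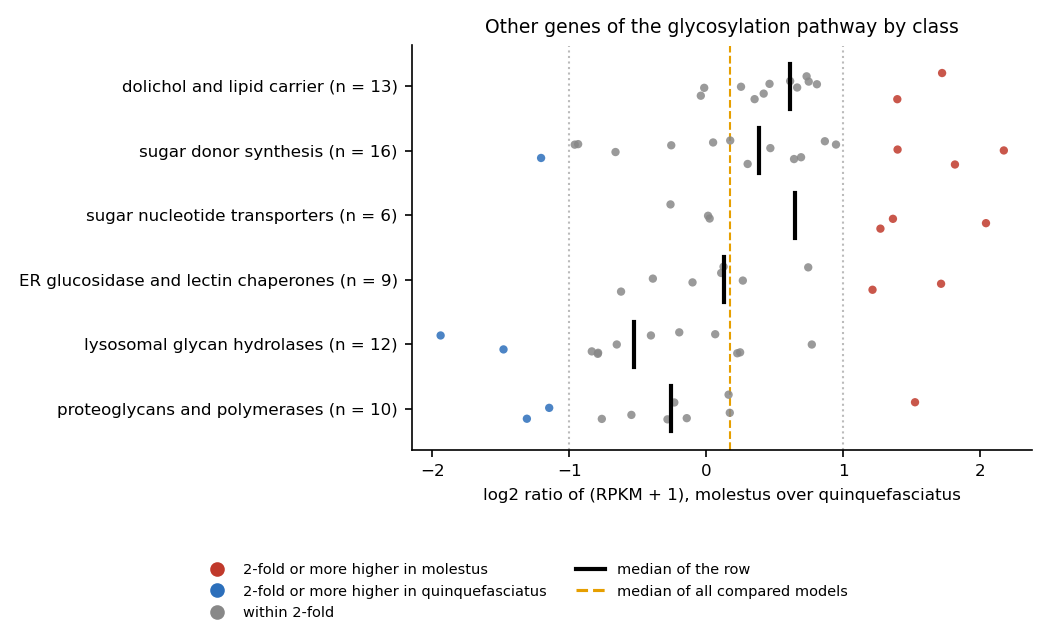
Log2 of (RPKM + 1) in molestus over that in quinquefasciatus for the 66 compared models of the glycosylation pathway outside the members, in rows by class. Black bars mark the median of a row and the dashed line that of all compared models (0.18); both red points of the row of glucosidases and lectin chaperones are receptor kinases taken in by the text pattern.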

How the data were processed

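Per the labels' protocols, RNA of the pooled females was taken up in TRIzol, enriched by its poly(A) tails and sequenced on an Illumina instrument from libraries that keep no strand, so reads of overlapping antisense genes cannot be told apart. The authors deposited the count of uniquely assigned reads per model, RPKM values, and the percent of the model covered, per the file headers. For aligner, counter and model release: not given in the sources used here. Listed counts summed to the library total in each header, RPKM recomputed from them matched the deposited values within rounding, and an unlisted model was taken as 0 reads.

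The tables were joined on the identifier. A fold is the plain quotient of the RPKM values, and its exact 95% interval (Clopper-Pearson) treats the molestus count as binomial given the sum of both counts. Lists were summarised by counts and medians of log2 ratios. Uniquely assigned reads undercount near-identical copies. None of the identifiers matched the RefSeq gene table used here, so no position or sequence is given. The members and lists were chosen with earlier results of these data known. Named models are the 8 largest ratios in each direction at 50 reads or more, the 3 most abundant of each role, and for each pathway class the 2 most abundant and the largest ratio. Members named beyond this rule were chosen after their values were seen. The procedure was tested on simulated counts. Alternatives were pseudocounts of 0.1 and 10, no filter, a minimum of 10 RPKM, 3 rescalings, a 4-fold threshold and narrower lists. The software was scipy 1.17.1, pandas 2.3.3 and numpy 2.4.6 under Python 3.11.15, with plots by matplotlib 3.10.9, and TMM factors (1.09 for molestus and 0.920 for quinquefasciatus) came from edgeR's calcNormFactors, version 4.0.16, in R 4.3.3.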

Additional observations from a re-analysis of the deposited data

How the results depend on the processing

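No paired analysis was possible because each taxon had 1 library, and no library could be left out. Counts of glycosylation models at least 2-fold higher are given here as molestus against quinquefasciatus. They were 25 and 28 at a pseudocount of 0.1, 6 and 3 at a pseudocount of 10, 15 and 8 at a minimum of 10 RPKM and 4 and 2 at a 4-fold threshold, and the pathway models gave 14 and 7, 5 and 0, 10 and 1, and 2 and 0 under the same settings. Without a filter both pairs of counts were as reported. Over all models the counts were 3304 and 2960 at a pseudocount of 0.1 and 1326 and 618 at a pseudocount of 10. They were 2331 and 1139 of 8029 at the minimum of 10 RPKM and 615 and 508 at the 4-fold threshold. At that minimum molestus held 65.2% of the members' calls and 67.2% of all calls. The median log2 ratio of the glycosylation models was 0.12 and 0.02 at the pseudocounts of 0.1 and 10, 0.71 at the minimum of 10 RPKM, and turned negative under rescaling by the median ratio (-0.12, a shift of -0.30), by TMM factors (-0.08, a shift of -0.24) and to equal sums of all but the most abundant models (-0.08). The pathway median was 0.12 at a pseudocount of 10, 0.16 without a filter and 0.26 at the minimum of 10 RPKM, and turned to -0.12, -0.07 and -0.07 under the 3 rescalings, with 8 models higher in quinquefasciatus under each. Over all models the median was 0.20 and 0.08 at the pseudocounts of 0.1 and 10 and 0.47 at the minimum of 10 RPKM. It turned to -0.10, -0.05 and -0.05 under the 3 rescalings. Without small-molecule sulfotransferases the members' median was 0.02. Without lipid, hormone, hydrolase and small-molecule descriptions, an alternative chosen after seeing the data, it was 0.20, with 19 and 14 models, and without adrenergic receptors and kinases, also added later, the pathway median was 0.15. Among roles, the median changed sign for mannosidases (0.68) and O-glycan GalNAc transferases (0.42) at the minimum of 10 RPKM, for GlcNAc transferases (-0.04) under the median ratio, and for glucosyltransferases without a filter (0.08) and at the minimum of 10 RPKM (0.28). The rescalings turned the side of 1 for 6 of 55 named models, all of them within 2-fold (CPIJ006257, CPIJ007376, CPIJ009417, CPIJ012734, CPIJ014647 and CPIJ016910), and for 0 of those at least 2-fold apart. Shifts of -0.30 to -0.24 are too small to turn a 2-fold difference. A floor of 10 reads gave no value, since both members at 0 reads in a library had at most 3 reads in the other.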
